A study of Mus musculus with 5 samples.

Results

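The 10 genes described here encode the mouse machinery of major histocompatibility complex (MHC) class II presentation. They were fixed by symbol and not ranked by a measured value, though earlier results of these data were known: H2-Aa, H2-Ab1 and H2-Eb1 (chains of the presenting molecules), Cd74 (invariant chain), Ciita (transcriptional coactivator), H2-DMa, H2-DMb1 and H2-DMb2 (chains of the peptide editor H2-DM), and H2-Oa and H2-Ob (chains of H2-O, which restrains H2-DM). Each matched 1 of the 32285 genes counted. Over all cells their counts of unique molecular identifiers (UMIs, 1 per captured transcript) ran from 1000 for H2-Ob to 2129377 for Cd74. The cells came from subcutaneous tumours of Renca, an established line of mouse renal cortical adenocarcinoma, grown in wild-type Balb/c mice. Control mice received PBS, and the treated groups are named for their antibodies: PD1 stands for anti-PD-1, CTLA4 for anti-CTLA-4 (both are directed at T-cell checkpoint receptors) and CD40 for an agonistic anti-CD40. The pairs are PD1+CTLA4, PD1+CD40 and CD40+CTLA4, and Triplet is the group given all 3, which makes 5 groups. Each antibody was injected into the peritoneum at 200 µg, 2 times, from day 10 after the tumour cells, and tumours were taken 24 hours after the second dose. Per the labels' protocols, CD45+CD3+, CD45+CD3- and CD45-CD3- cells were sorted, recombined at a fixed ratio, pooled in equal parts from 3 mice per group, and loaded as 1 droplet library per group, so the sort sets the share of each cell class and no class share is read as tumour composition.

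Class II molecules show peptides from endosomes to CD4+ T cells. The chains are assembled with the invariant chain, which blocks the groove and leads the complex to endosomes; there proteases trim the invariant chain and H2-DM exchanges its last fragment for antigenic peptide, while H2-O binds H2-DM and holds it back. B cells, dendritic cells and macrophages transcribe these genes at rest or after interferon-γ, through Ciita, which does not bind DNA itself but docks on the RFX, CREB and NF-Y proteins assembled on X and Y boxes upstream of the genes.

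These boxes could be looked for in the RefSeq promoters of 7 of the 10 genes (8 promoters, H2-DMa having 2). The letters ATTGG, the core of the Y box, were searched on both strands in the 250 bases before each annotated start, and ATGATG was searched in the same way as letters like those of the X box. The second string was chosen after these promoters had been looked at. ATTGG occurred in 7 of the 8 promoters, against 33.8% of all 32851 promoters in the table. ATGATG occurred in 4 of the 8, against 9.39%. ATGATG followed by ATTGG on 1 strand, 5 to 30 bases apart, occurred in the same 4, those of H2-DMb1, H2-DMb2, H2-Eb1 and H2-Ob, and in 99 promoters of the table, or 0.301%. The 2 strings share no letters in these matches. The 150 bases before the start of 6 members are printed because they set the 4 genes with both strings beside the α chain gene H2-Aa and beside H2-Oa, the member whose pattern across cells was least like the rest. They are from GRCm38.p6 and read 5′ to 3′ along the gene; H2-Aa lies on the minus strand and the others on the plus strand. Capitals mark ATTGG, on either strand (CCAAT on the other), and ATGATG.
H2-Eb1, chr17:34305717-34305866: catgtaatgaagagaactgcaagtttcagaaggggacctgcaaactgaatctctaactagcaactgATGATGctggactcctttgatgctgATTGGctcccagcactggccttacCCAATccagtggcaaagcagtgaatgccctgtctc
H2-DMb1, chr17:34153041-34153190: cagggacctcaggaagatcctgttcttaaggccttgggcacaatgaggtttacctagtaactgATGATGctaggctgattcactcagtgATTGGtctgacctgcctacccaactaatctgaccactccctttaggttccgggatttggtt
H2-DMb2, chr17:34145099-34145248: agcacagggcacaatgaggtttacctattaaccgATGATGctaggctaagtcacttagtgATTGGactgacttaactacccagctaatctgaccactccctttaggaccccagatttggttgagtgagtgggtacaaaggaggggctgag
H2-Ob, chr17:34238755-34238904: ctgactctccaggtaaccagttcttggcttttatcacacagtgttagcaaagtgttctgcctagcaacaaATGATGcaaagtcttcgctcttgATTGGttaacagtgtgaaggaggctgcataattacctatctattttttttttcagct
H2-Aa, chr17:34287824-34287973: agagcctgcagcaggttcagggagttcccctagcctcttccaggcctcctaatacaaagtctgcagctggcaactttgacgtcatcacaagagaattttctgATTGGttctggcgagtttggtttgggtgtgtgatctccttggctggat
H2-Oa, chr17:34092229-34092378: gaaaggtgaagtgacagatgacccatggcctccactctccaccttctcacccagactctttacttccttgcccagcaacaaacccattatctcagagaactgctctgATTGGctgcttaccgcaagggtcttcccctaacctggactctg
In these windows ATTGG began 59 bases before the start in H2-Eb1, 61 in H2-DMb1, 90 in H2-DMb2, 57 in H2-Ob, 48 in H2-Aa and 43 in H2-Oa. ATGATG began 84, 87, 116 and 80 bases before the start in the first 4 of these. A match is a string of letters, and the deposited counts carry no measure of what is bound there. X boxes in other letters were not searched for, so the promoters without ATGATG are not shown to lack one. H2-DMb1 and H2-DMb2 are near-identical copies, so their matches are not independent.

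The libraries held 61792481 to 95867828 UMIs, and 4404 (PBS), 9999 (PD1+CTLA4), 16884 (PD1+CD40), 16389 (CD40+CTLA4) and 4732 (Triplet) barcodes passed the cell filter. Cell classes were named from clusters formed without the 10 members. Of the markers fixed for each class, B-like and T-like cells held all 10 at their highest among the 5 classes in each library with at least 50 such cells, macrophage-like cells 11 to 15 of 15, dendritic-like cells 8 to 12 of 14, and tumour-like cells 7 or 8 of 12. In the 2 libraries with anti-CD40 and 1 other antibody, 12429 and 11671 barcodes, mostly of few UMIs, stayed unnamed. In PBS 2048 stayed unnamed (median of 5456 UMIs), in PD1+CTLA4 2787 (1362) and in Triplet 1139 (14283), so not all unnamed barcodes were shallow. The cDC2-like cells of PBS numbered 42 and were not used as a class of their own. B-like cells reached 50 only in PBS (69) and PD1+CTLA4 (140). Of the T-cell receptor UMIs of T-like cells, 78.4% lay on V segments in PBS and 3.77% to 5.34% in the treated libraries, although the labels give all libraries the same 5′ kit; levels in PBS are therefore set beside the others and no difference from PBS is called. With 1 library per group there is no replicate and no p-value, and all intervals are exact 95% intervals for counting error alone. Levels are given as CPM, the UMIs of a gene per 1000000 UMIs of the class, and are compared for 1 gene across classes.

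The presenting chains and the invariant chain were higher in conventional dendritic cells of the cDC2-like type than in macrophage-like cells, and lower still in T-like and tumour-like cells. B-like cells of PBS held the highest Cd74 of the named classes, but not the highest chains: H2-Aa was highest in the pooled dendritic-like cells of PBS (10439), and H2-Eb1 in B-like cells of PBS (4499) lay below every cDC2-like library. For H2-Aa, the α chain of I-A, cDC2-like cells held 6665 CPM in PD1+CTLA4, 8261 in PD1+CD40, 8415 in CD40+CTLA4 and 6131 in Triplet. Macrophage-like cells held 4186 in PBS, 4835 in PD1+CTLA4, 3265 in PD1+CD40, 3207 in CD40+CTLA4 and 2586 in Triplet. The ranges of these 2 classes over libraries did not overlap, but clusters inside them did. In PD1+CTLA4 the macrophage-like cluster led by Ly6a, Cxcl9 and Iigp1 held 6692 (6616 to 6769.6). The cDC2-like cluster led by Mucl1 and Cd209a held 6052 (5972 to 6133) there. The cDC2-like cells also held macrophage markers, and more in the 2 pairs with anti-CD40: the 15 macrophage markers summed to 8164, 10488, 12747 and 8546 in the same order, with none at 0 UMIs, against 23445 to 48005 in macrophage-like cells. Their own 7 cDC2 markers summed to 2136, 2549, 3023 and 2359, with 6, 4, 4 and 6 of them at 20 or more, and the part of macrophage RNA in these levels was not tested. B-like cells held 9104 (8688 to 9534) in PBS and 3522 (3321 to 3731) in PD1+CTLA4, so that they stood above macrophage-like cells in the first library and below them in the second. T-like cells held 252 to 641 and tumour-like cells 140.4 to 414. H2-Ab1, the β chain of I-A, and H2-Eb1, the β chain of I-E, kept the same order of cDC2-like above macrophage-like cells, with 5051 to 6579.6 against 2129.9 to 3680.5 and 4769 to 6570.1 against 2062 to 3649.

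Cd74 gave the most UMIs of any member in every class. Its level in cDC2-like cells was 13333 in PD1+CTLA4, 14748 in PD1+CD40, 15667 in CD40+CTLA4 and 12027 in Triplet. In macrophage-like cells it was 11170.1 in PBS, 9758 in PD1+CTLA4, 6572 in PD1+CD40, 6658 in CD40+CTLA4 and 5295 in Triplet, the lowest value of the 5. In B-like cells it was 24198 in PBS and 7819 in PD1+CTLA4. Plasmacytoid dendritic-like cells, present in number in PD1+CTLA4 alone (202 cells), held 5986 CPM of Cd74 and 2774 of H2-Aa, below the macrophage-like cells of their library. After each cell was thinned to 1000 UMIs, Cd74 was seen in at least 97.6% of B-like cells, at least 98.9% of cDC2-like cells and 77.3% to 84.9% of macrophage-like cells.

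Ciita, the coactivator of the other members, was carried by far fewer UMIs, and in macrophage-like cells it differed more between libraries than the presenting chains did. There it stood at 34.4 (30.9 to 38.3) CPM in PBS, 193 (185 to 201) in PD1+CTLA4, 71.4 (68.8 to 74.0) in PD1+CD40, 68.2 (65.8 to 70.6) in CD40+CTLA4 and 79.8 (76.3 to 83.3) in Triplet. PD1+CTLA4 was the high library and its interval met no other. In cDC2-like cells Ciita was 284 in PD1+CTLA4, 209 in PD1+CD40, 178 in CD40+CTLA4 and 249 in Triplet, again with the 2 pairs that hold anti-CD40 lowest of the treated libraries. Those pairs lie mostly in the cluster led by Mfge8, Ifitm1 and Epcam. There Ciita was 209.9 in PD1+CD40, 179 in CD40+CTLA4 and 251 in Triplet. In PD1+CTLA4 and Triplet it was 247 and 203 in the cluster led by Mucl1 and Cd209a, and 363 and 351 in that led by Cd209d. B-like cells held 121 (77.7 to 181) in PBS and 156 (116 to 206) in PD1+CTLA4, which overlap. Per 1000 UMIs of H2-Aa, H2-Ab1, H2-Eb1 and Cd74 together, macrophage-like cells held 1.66 Ciita UMIs in PBS, 8.79 in PD1+CTLA4, 4.84 in PD1+CD40, 4.63 in CD40+CTLA4 and 6.61 in Triplet.

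**Figure D1:**
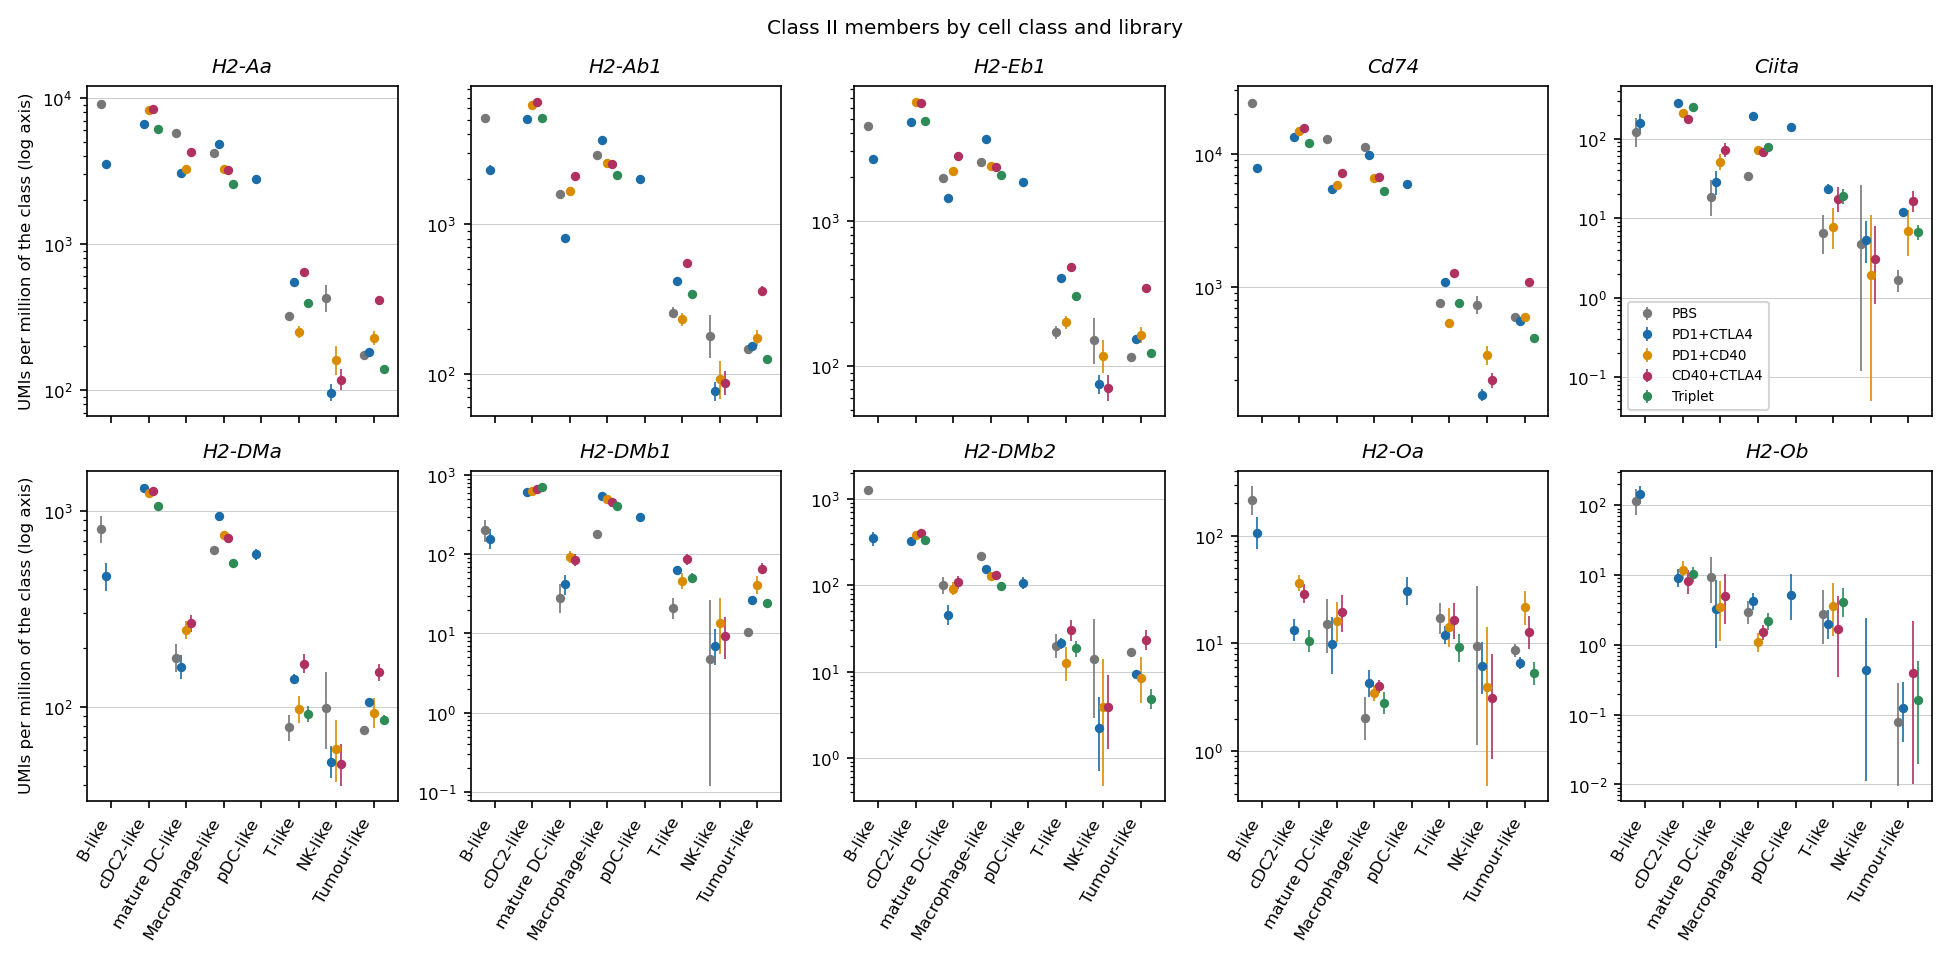
Level of each member (vertical log axis, CPM) by cell class and library; points are single libraries and bars exact 95% Poisson intervals for counting error. H2-Oa differs from the other panels: its macrophage-like values, 2.04 to 4.3, lie below its T-like values, 9.18 to 17.2.

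The peptide editor H2-DM followed the presenting chains, and H2-O did not. H2-DMa, the editor's α chain, stood at 1065 to 1315 CPM in cDC2-like cells and 540.5 to 946 in macrophage-like cells, without overlap. H2-DMb1 and H2-DMb2, near-identical copies of the β chain between which reads could be split wrongly, were used unequally. H2-DMb2 made up 86.2% and 69.1% of the UMIs of both copies in B-like cells of PBS and PD1+CTLA4. In macrophage-like cells it made up 54.7% in PBS but 22.5%, 20.6%, 22.1% and 19.1% in PD1+CTLA4, PD1+CD40, CD40+CTLA4 and Triplet, and in cDC2-like cells 31.6% to 37.8%. Within PD1+CTLA4, where all 3 classes were counted, the share ranked B-like above cDC2-like (34.8%) above macrophage-like cells.

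H2-Oa and H2-Ob were concentrated in B-like cells. H2-Oa reached 217 (157 to 293) CPM in B-like cells of PBS and 107 (74.7 to 149) in those of PD1+CTLA4, which was 106-fold (61.2 to 191) and 25.0-fold (15.7 to 39.2) the macrophage-like level of the same library. H2-Ob reached 116 (73.7 to 174) and 144 (106 to 192), 39.2-fold (21.7 to 70.2) and 34.2-fold (22.4 to 52.1) the macrophage-like level. Per 100 UMIs of the 3 H2-DM genes, H2-O gave 14.7 and 25.9 in B-like cells, 0.329 to 0.519 in macrophage-like cells and 0.99 to 2.16 in cDC2-like cells. Among cDC2-like cells H2-Oa was 13.4 (10.5 to 16.8) in PD1+CTLA4 and 10.6 (8.30 to 13.4) in Triplet, against 36.4 (30.6 to 42.9) in PD1+CD40 and 29.0 (23.6 to 35.3) in CD40+CTLA4; the first 2 libraries did not overlap the last 2. Different clusters hold most cDC2-like cells in these pairs of libraries: one led by Mfge8 and Epcam in PD1+CD40 and CD40+CTLA4, and those led by Cd209a in PD1+CTLA4 and Triplet.

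Mature dendritic-like cells, named for Ccr7, Fscn1 and Ccl22, held every member at a lower level than the cDC2-like cells of the same library in the 3 libraries with both classes, but not by the same factor. Cd74 in mature cells was 40.6%, 39.3% and 46.1% of the cDC2-like level in PD1+CTLA4, PD1+CD40 and CD40+CTLA4, and H2-Aa 45.7%, 39.7% and 50.9%. H2-Ab1 was 16.0%, 26.5% and 31.7%. H2-DMa was 12.1%, 20.0% and 21.2%, and H2-DMb1 6.88%, 14.6% and 12.7%, both lower than H2-Ab1 in each library. H2-DMb2, at 14.2% (10.7 to 18.6), 24.2% (20.1 to 28.9) and 26.6% (22.3 to 31.4), overlapped H2-Ab1 in all 3. Ciita was 9.94% (6.86 to 13.9), 24.4% (18.9 to 31.0) and 41.1% (33.0 to 50.7). H2-Oa and H2-Ob were counted on 4 to 27 UMIs in these mature cells, and the upper bounds of their ratios ran from 69.1% to 145%. The imbalance of the I-A chains was marked: H2-Ab1 gave 27.7, 26.5, 50.9 and 48.7 UMIs per 100 of H2-Aa in mature cells of PBS, PD1+CTLA4, PD1+CD40 and CD40+CTLA4, against 75.8, 76.3, 78.2 and 83.5 in cDC2-like cells of PD1+CTLA4, PD1+CD40, CD40+CTLA4 and Triplet.

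The level of a class hid a wide spread among its cells. After thinning to 1000 UMIs, the median macrophage-like cell held 12 UMIs of the 10 members in PBS, 24 in PD1+CTLA4, 15 in PD1+CD40, 13 in CD40+CTLA4 and 11 in Triplet. The 90th percentiles were 55, 42, 35, 36 and 32, and 15.3%, 9.50%, 9.12%, 9.16% and 10.1% of these cells held no member UMI. Macrophage-like cells of PBS thus spanned the widest range, with a median below that of PD1+CTLA4 and a 90th percentile above it. In cDC2-like cells the 10th percentile was 17 to 24 UMIs and at most 0.562% of cells held none. Mature dendritic-like cells were more uneven than cDC2-like cells: their medians were 9, 5, 4 and 8 in PBS, PD1+CTLA4, PD1+CD40 and CD40+CTLA4, with 90th percentiles of 62, 24.4, 33.9 and 39. The 5% of cells with the most member UMIs held 18.9% to 25.8% of the total in mature cells and 8.20% to 10.5% in cDC2-like cells.

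**Figure D2:**
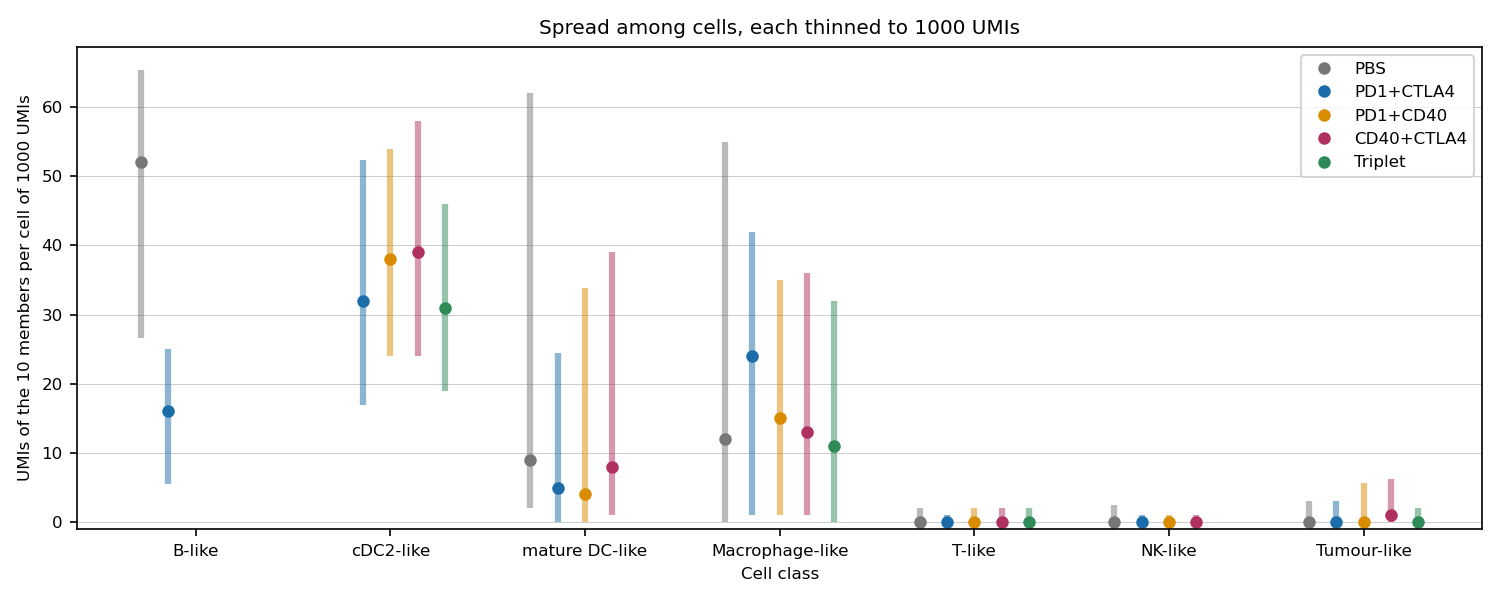
Summed UMIs of the 10 members per cell after thinning each cell to 1000 UMIs (vertical axis), by class and library; points are medians and bars run from the 10th to the 90th percentile of cells. Macrophage-like medians lie between 11 and 24, and T-like and tumour-like medians at 0 or 1.

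Among macrophage-like cells, 5 comparisons of treated libraries were made, which share libraries with each other, so their values are given side by side and not as independent results. A gene was called where its log2 fold change, on CPM with 5 added, was at least 2-fold, among genes with at least 20 UMIs over both libraries; all 10 members passed that minimum. Adding anti-CD40 to anti-PD-1 and anti-CTLA-4 (Triplet against PD1+CTLA4) left all 10 members lower, with a median of -0.79 against -0.03 over all genes, and 1 of 10 was called where 1.63% of all genes were. The called gene was Ciita, at 0.414 times its PD1+CTLA4 level (0.390 to 0.440), a log2 change of -1.22. H2-Aa followed with -0.90, Cd74 with -0.88, H2-Eb1 with -0.82, H2-DMa with -0.80 and H2-Ab1 with -0.79. H2-DMb1 fell least, to 0.761 times its PD1+CTLA4 level (-0.39). H2-Ob and H2-Oa, at 2 to 5 CPM, have small log2 changes (-0.36 and -0.25) because 5 was added, and their ratios were 0.519 (0.348 to 0.778) and 0.654 (0.450 to 0.958).

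The 2 exchanges of 1 checkpoint antibody for anti-CD40 gave the same single call. In PD1+CD40 against PD1+CTLA4 all 10 members were lower, the median was -0.54 against -0.09 over all genes, and Ciita alone was called, where 2.89% of all genes were; its ratio was 0.370 (0.350 to 0.392). In CD40+CTLA4 against PD1+CTLA4 all 10 were lower, the median was -0.52 against -0.09, and Ciita alone was called, where 3.02% of all genes were; its ratio was 0.354 (0.335 to 0.374). In these comparisons H2-Aa changed by -0.57 and -0.59 and Cd74 by -0.57 and -0.55, while H2-DMb1 changed by -0.11 and -0.22. Scaling by TMM moved the median of all genes by over 0.1, to 0.03 and 0.04; with it Ciita stayed called at -1.16 and -1.18, but H2-DMb1 turned to 0.12 and 0.05, and in CD40+CTLA4 against PD1+CTLA4 H2-DMb2 (0.02) and H2-Oa (0.08) also turned. H2-Aa, H2-Ab1, H2-Eb1, Cd74, Ciita, H2-DMa and H2-Ob stayed lower under both scalings.

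In macrophage-like cells, no member was called when anti-CTLA-4 or anti-PD-1 was added to a pair that already held anti-CD40. In Triplet against PD1+CD40, 0 of 10 were called, where 0.349% of all genes were, and the median was -0.27 against 0.08. In Triplet against CD40+CTLA4, 0 of 10 were called, where 0.424% of all genes were, and the median was -0.22 against 0.08. In both, 8 of 10 members were below 0; the exceptions were Ciita (0.15 and 0.21) and H2-Ob (0.24 and 0.14). This direction depended on how the cells were taken: with cells gated on markers 6 of 10 were below 0 in both, and over all mononuclear phagocytes 3 of 10 were in Triplet against CD40+CTLA4 and 8 in Triplet against PD1+CD40. Under TMM scaling, which moved the medians of all genes to -0.02 and -0.03, Ciita lay at -0.02 and -0.01.

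**Figure D3:**
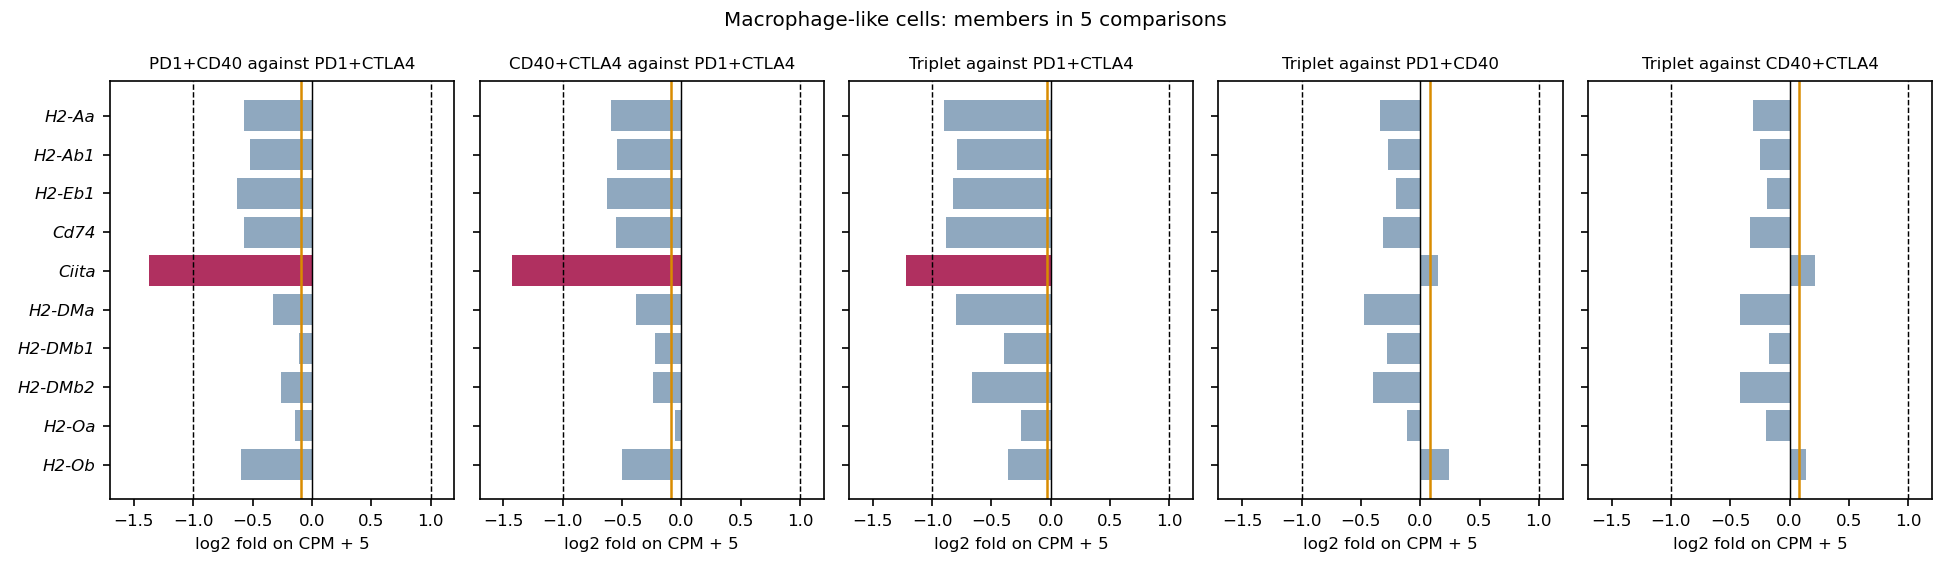
Log2 fold change of each member in macrophage-like cells (horizontal axis, on CPM with 5 added) in 5 comparisons; dark red bars are called at 2-fold, dashed lines mark 2-fold and the orange line the median of all genes tested. Ciita is the called member in the 3 comparisons against PD1+CTLA4, at -1.22, -1.37 and -1.43, on the scaling to class totals.

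The macrophage-like cells of the libraries lie in different clusters, and the clusters differ in class II. The cluster led by Ly6a, Cxcl9 and Iigp1, genes induced by interferon, held the highest summed level of the macrophage-like clusters counted in PD1+CTLA4, with 32586 CPM of the 10 members and 313 (297 to 330.2) of Ciita. It held 439 of 1240 macrophage-like cells there, 91 of 3265 in PD1+CD40, 269 of 3494 in CD40+CTLA4 and 133 of 1460 in Triplet. Inside this cluster the sum was 24013 in PD1+CD40, 26068 in CD40+CTLA4 and 24822 in Triplet, and Ciita 109.8 (91.6 to 131), 129 (118 to 142) and 217 (196 to 240.0). Ciita was thus lower than in PD1+CTLA4 within the cluster too, most so in the 2 pairs with anti-CD40. The cluster led by Vcan, Hp and Fpr2 differed in its sum: it held 26198 (25828 to 26571) in PD1+CTLA4 and 26519 (26385 to 26653) in CD40+CTLA4, which overlap, against 22954 in PD1+CD40 and 20397 in Triplet. Ciita in that cluster was 169 (141 to 202) in PD1+CTLA4 and 111, 116 and 109 in PD1+CD40, CD40+CTLA4 and Triplet. Clusters low in class II were those led by Ms4a7 and Ccl7 (6098, 6351 and 5367 in PD1+CD40, CD40+CTLA4 and Triplet) and by Plac8 and Ly6c2, markers of monocytes (10273, 3203 and 6137 in PD1+CTLA4, PD1+CD40 and CD40+CTLA4).

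When both libraries of a comparison were given the same mix of clusters, a choice made after seeing the data, Ciita stayed past 2-fold against PD1+CTLA4 in the 2 other pairs, at -1.32 for PD1+CD40 and -1.11 for CD40+CTLA4. In Triplet against PD1+CTLA4 it was at -0.50 and no longer called, and H2-Aa moved from -0.90 to -0.52. That call was also lost with cells thinned to 1000 UMIs (-0.94), with cells gated one by one on markers (-0.84) and over all mononuclear phagocytes (-0.81).

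**Figure D4:**
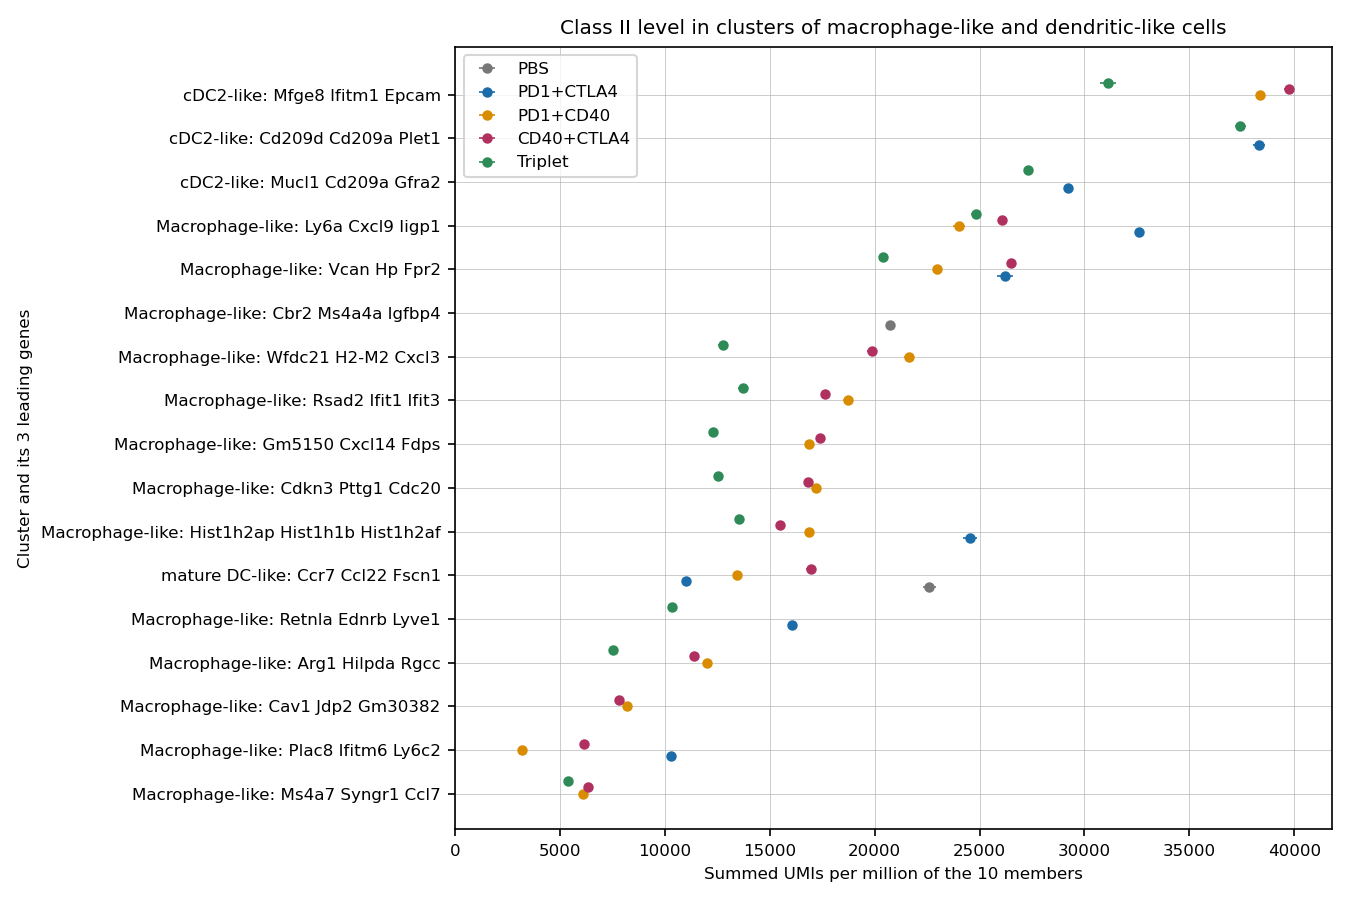
Summed CPM of the 10 members (horizontal axis) in each cluster of macrophage-like and dendritic-like cells, named by its 3 leading genes; points are libraries with at least 50 cells in the cluster and bars exact 95% Poisson intervals. The highest macrophage-like value of PD1+CTLA4 is in the cluster led by Ly6a, Cxcl9 and Iigp1 (32586), and the clusters led by Mfge8 and by Cd209d reach 39742 and 38328. The cDC2-like cluster led by Mucl1 lies at 29235 in PD1+CTLA4, below that macrophage-like value.

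Genes around the members were read from a list of the other class II chains, endosomal proteases, turnover factors, DNA-binding partners of Ciita and factors upstream of it. In PD1+CD40 against PD1+CTLA4, 5 of 27 measured genes were called lower and 0 higher, with a list median of -0.33, beside a median of -0.09 and 2.89% called in either direction over all genes. They included Irf1, an interferon-induced activator of Ciita transcription, at 42.5 against 180.3 CPM (-1.96), Cd83, which protects surface class II from ubiquitin-dependent loss, at 11.1 against 50.2 (-1.78), and Socs1, which dampens cytokine signalling, at 28.8 against 81.8 (-1.36). In CD40+CTLA4 against PD1+CTLA4, 4 of 25 were lower and 0 higher, with a list median of -0.36 beside -0.09 and 3.02% called over all genes: Cd83 at 14.9 (-1.47), Irf1 at 65.3 (-1.40), March1, the ubiquitin ligase of class II, at 56.8 against 140.0 (-1.23), and Socs1 at 36.9 (-1.05). In Triplet against PD1+CTLA4, 2 of 26 were lower and 0 higher, with a list median of -0.23 beside -0.03 and 1.63% called over all genes: Irf1 at 69.8 (-1.31) and Cd83 at 21.2 (-1.07). In the 2 comparisons of Triplet with a pair holding anti-CD40, 0 of 27 were called. None of the 7 DNA-binding partners of Ciita, among them Rfx5, Rfxank and Rfxap, was called in any of the 5 comparisons.

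Mature dendritic-like cells moved the other way, though not alone. They were compared in the 2 exchanges, since Triplet held 40 of them. In PD1+CD40 against PD1+CTLA4 all 9 members with enough UMIs were higher, with a median of 0.62 against -0.04 over all genes, and 2 of 9 were called, where 7.35% of all genes were: H2-Ab1, at 1669.7 against 806 CPM (1.05), and H2-DMb1, at 91.6 against 41.6 (1.05). In CD40+CTLA4 against PD1+CTLA4 all 9 were higher, with a median of 0.95 against -0.04, and 3 of 9 were called, where 8.11% of all genes were: H2-Ab1 at 2087 (1.37), Ciita at 73.3 against 28.3 (1.24, a ratio of 2.59 with an interval of 1.74 to 3.95) and H2-DMb2 at 108 against 45.7 (1.15). H2-Ob, with 4 to 7 UMIs, was not measured. These levels pool the UMIs of a class, and in PD1+CD40 the median cell did not rise. Thinned to 1000 UMIs, mature cells held a median of 5 member UMIs in PD1+CTLA4, 4 in PD1+CD40 and 8 in CD40+CTLA4. Their 90th percentiles were 24.4, 33.9 and 39. The mature cells' own markers moved with the members: the 8 markers summed to 6105 CPM in PD1+CTLA4, 9168 in PD1+CD40 and 9964 in CD40+CTLA4. So did the 15 macrophage markers (2055, 3162 and 3485, with none at 0 UMIs) and the 7 cDC2 markers (2159, 3758 and 4257, with 1 at 0 UMIs in each), and the part of these cells in the result was not tested. In cDC2-like cells 8 and 7 of 10 members were above 0 in these exchanges. Their medians were 0.24 and 0.28 against -0.28 and -0.26 over all genes. The 2 sides of these exchanges hold different cDC2-like clusters. The cluster led by Mfge8 and Epcam held 364 of 371 cDC2-like cells in PD1+CD40, 298 of 306 in CD40+CTLA4 and 14 of 535 in PD1+CTLA4. A change of antibody and a change of cluster cannot be told apart there. Tumour-like cells had 6 and 9 of 9 above 0, with medians of 0.10 and 0.98 against -0.13 and -0.10. The 15 macrophage markers rose in tumour-like cells too. They summed to 647 CPM in PD1+CTLA4 (1663 cells), 1339 in PD1+CD40 (52 cells) and 2177 in CD40+CTLA4 (78 cells). The part of macrophage RNA in the tumour-like values was not tested. T-like cells had 2 and 8 of 10 above 0, with medians of -0.70 and 0.24 against -0.07 and -0.05.

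Members in cells outside the presenting classes were read beside tracers of macrophage RNA (C1qa, C1qb, C1qc, Lyz2, Apoe and Csf1r), since RNA set free from 1 kind of cell adds its genes to every droplet in 1 ratio. In T-like cells the summed members stood at 7.57% of the macrophage-like level in PBS, 11.5% in PD1+CTLA4, 8.68% in PD1+CD40, 20.3% in CD40+CTLA4 and 15.1% in Triplet. The tracers stood at 1.5%, 8.54%, 7.18%, 11.2% and 6.30%, below the members in each library. In tumour-like cells the members stood at 5.23%, 5.08%, 8.20%, 15.4% and 7.07%, and the tracers at 0.662%, 1.77%, 4.66%, 7.46% and 2.99%, again below. In natural killer-like cells the members stood at 7.44%, 2.00%, 4.70% and 3.39% in PBS, PD1+CTLA4, PD1+CD40 and CD40+CTLA4, and the tracers at 3.33%, 1.86%, 2.49% and 2.61%. In these cells the intervals of members and tracers met in PD1+CTLA4 alone (1.89% to 2.13% and 1.74% to 1.97%).

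Seen as a ratio within a class, the members gave 48.6, 96.1, 64.5, 62.9 and 61.2 UMIs per 100 tracer UMIs in macrophage-like cells, and 246, 129, 78.0, 114 and 146 in T-like cells of the same libraries. Macrophages are not the sole source the droplets could hold. In the 2 libraries whose files list empty barcodes, those of 10 to 100 UMIs gave 162 members per 100 tracers in PBS and 45.0 in CD40+CTLA4. T-like cells were above that ratio in both, also with barcodes of 1 to 50 UMIs (166 and 61.7). Against tumour-like cells, which gave 385, 276, 114, 129.6 and 145, T-like cells were lower in the first 4 libraries, and in Triplet the intervals overlapped (142 to 151 and 141 to 149). Tumour-like cells were then taken as the source of free RNA in the 3 libraries without empty barcodes. Subtraction left the summed members of T-like cells at -3097 CPM in PD1+CTLA4, -643 in PD1+CD40 and 23.0 of 1990.1 in Triplet. In the first 2 of these, tumour-like cells gave more members per tracer than T-like cells. A remainder below 0 was thus fixed by this choice of source and decides nothing about T-like cells. With empty barcodes as the source, subtraction left 567 of 1656 in PBS and 1981 of 3268 in CD40+CTLA4.

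A minority of droplets held most of these UMIs. The 5% of T-like cells with the most member UMIs, after thinning to 1000, held 45.2%, 69.7%, 49.7%, 56.6% and 51.4% of them, against 12.2% to 20.9% in macrophage-like cells. Cd74 was seen in 21.2%, 13%, 15.5%, 23.8% and 16.7% of T-like cells thinned to 1000 UMIs, and in 45.5%, 24.9%, 33.3%, 41.4% and 33.1% of them at their own depth, with medians of 2512 to 2744 UMIs. Natural killer-like cells, of 2285 to 4852 UMIs, gave 21.4%, 8.91%, 16.5% and 10.0% when thinned (Triplet held too few) and 50.6%, 19.2%, 31.5% and 37.3% unthinned. In PBS the T-like share was at or below the natural killer-like share at each depth and is not read as expression of Cd74. In PD1+CD40 the order turned with depth, since T-like cells thinned to 500 UMIs gave 10.0% against 7.26%, and the intervals at 1000 overlapped (12.2 to 19.2 and 10.4 to 24.4). In tumour-like cells, of 22395 to 30946 UMIs, Cd74 was seen in 28.0%, 22.9%, 34.6%, 41.0% and 20.7% when thinned and in 79.6% to 98.7% at their own depth, where depth alone raises the share.

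Leaving out barcodes with 3 or more UMIs of a second lineage, a filter that uses some of the same tracer genes, brought the members in T-like cells down to 3.17%, 1.16%, 3.21%, 3.72% and 3.18% of the macrophage-like level, and the tracers to 0.331%, 0.527%, 1.13%, 1.41% and 1.14%. Since the filter takes out tracer UMIs themselves, the order of members and tracers after it says nothing about their order before it. It removed 137 of 569, 600 of 2387, 194 of 469, 188 of 415 and 410 of 1207 T-like cells. In PD1+CTLA4 it left 356 natural killer-like cells, with Cd74 at 76.4 (57.5 to 99.4) CPM. T-like cells of that library then held 84.8 (77.3 to 92.8), and the intervals overlapped. The larger T-like share of cells with Cd74 in PD1+CTLA4 is therefore not read as expression of Cd74 either. In tumour-like cells 272 cells of PBS and 412 of PD1+CTLA4 were left, with members at 3.24% and 2.07%, tracers at 0.0390% and 0.0991%, and H2-DMa at 11.4% and 8.20%. After H2-Oa, H2-DMa stood highest of the members there, with the other 8 at 0% to 4.68%. H2-DMa also stood above the summed members in filtered T-like cells. There it was at 9.70% in PBS, 4.52% in PD1+CTLA4, 7.19% in PD1+CD40, 6.63% in CD40+CTLA4 and 8.68% in Triplet. In filtered natural killer-like cells of PD1+CTLA4 H2-DMa was at 4.29%, with the summed members at 1.04%. With all tumour-like cells it was 12.1%, 11.2%, 12.4%, 20.7% and 15.9%, the highest after H2-Oa except in CD40+CTLA4, where Ciita was at 24.1% and H2-Ob, on 1 UMI, at 26.3%.

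H2-Oa ran against the other members. In T-like cells it was 17.2 (12.1 to 23.7), 12.0 (9.90 to 14.4), 14.3 (9.19 to 21.3), 16.5 (11 to 23.7) and 9.18 (6.67 to 12.3) CPM, in the order PBS, PD1+CTLA4, PD1+CD40, CD40+CTLA4 and Triplet, and in macrophage-like cells 2.04, 4.3, 3.45, 3.98 and 2.81. The T-like level was 8.41-fold (4.76 to 15.3), 2.80-fold (1.99 to 3.98), 4.16-fold (2.58 to 6.45), 4.14-fold (2.69 to 6.14) and 3.26-fold (2.19 to 4.81) the macrophage-like level. Tumour-like cells also lay above macrophage-like cells, by 4.22-fold (2.67 to 7.04), 1.52-fold (1.12 to 2.10), 6.26-fold (4.10 to 9.30), 3.22-fold (2.14 to 4.71) and 1.89-fold (1.33 to 2.68). Without barcodes of a second lineage H2-Oa in T-like cells was 19.3, 12.7, 19.5, 13.3 and 8.55, and in macrophage-like cells 0.863, 2.92, 2.08, 2.84 and 1.31, so the ratio of the classes was larger in all 5 libraries. In empty barcodes of 10 to 100 UMIs it was 4.63 (2.59 to 7.63) in PBS and 2.26 (1.03 to 4.29) in CD40+CTLA4, below the T-like interval of both libraries. B-cell markers were higher in the same cells: the B tracers Cd79a, Cd79b and Ms4a1 summed to 9.29, 6.06, 5.38, 10.8 and 6.88 in T-like cells and 2.86, 2.58, 1.17, 1.11 and 1.64 in macrophage-like cells, and after the same filter to 8.29, 4.83, 9.08, 16.6 and 6.61 against 2.71, 1.61, 1.22, 1.10 and 1.36. The 10 B markers together summed to 11.9 to 26.0 in T-like cells, 15.2 to 19.0 in tumour-like cells and 1.35 to 4.39 in macrophage-like cells, none reached 20 CPM, and 2 to 6 of 10, 1 to 7 and 1 to 4 were at 0 UMIs. In B-like cells of PBS and PD1+CTLA4 the tracers stood at 4913 and 3503 beside 217 and 107 of H2-Oa, while in T-like cells of all 5 libraries the tracers stood below H2-Oa, and after the filter in all but CD40+CTLA4. Its partner H2-Ob varied in direction: in T-like cells it was 2.79, 2.02, 3.58, 1.70 and 4.17, on 3 to 20 UMIs. This was 0.941-fold (0.319 to 2.31), 0.480-fold (0.267 to 0.830), 3.26-fold (1.14 to 7.68), 1.12-fold (0.225 to 3.41) and 1.91-fold (1.08 to 3.23) the macrophage-like level, above it in PD1+CD40 and Triplet and below it in PD1+CTLA4. After the filter it stood at 539.8% (138 to 1532) in PD1+CD40 and 329.6% (163 to 630.5) in Triplet, and the intervals of the other 3 libraries held 100%. In tumour-like cells H2-Ob had 2, 5, 0, 1 and 2 UMIs, while H2-Oa had 219, 263, 31, 32 and 65; the 0 of PD1+CD40 allows up to 2.57 CPM. The other 8 members were lower in T-like cells than in B-like, pooled dendritic-like and macrophage-like cells of every library with 50 such cells. Against mature dendritic-like cells alone, H2-DMb1 was higher in T-like cells of PD1+CTLA4 (63.3 against 41.6) and near level in CD40+CTLA4 (86.3 against 84.8).

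**Figure D5:**
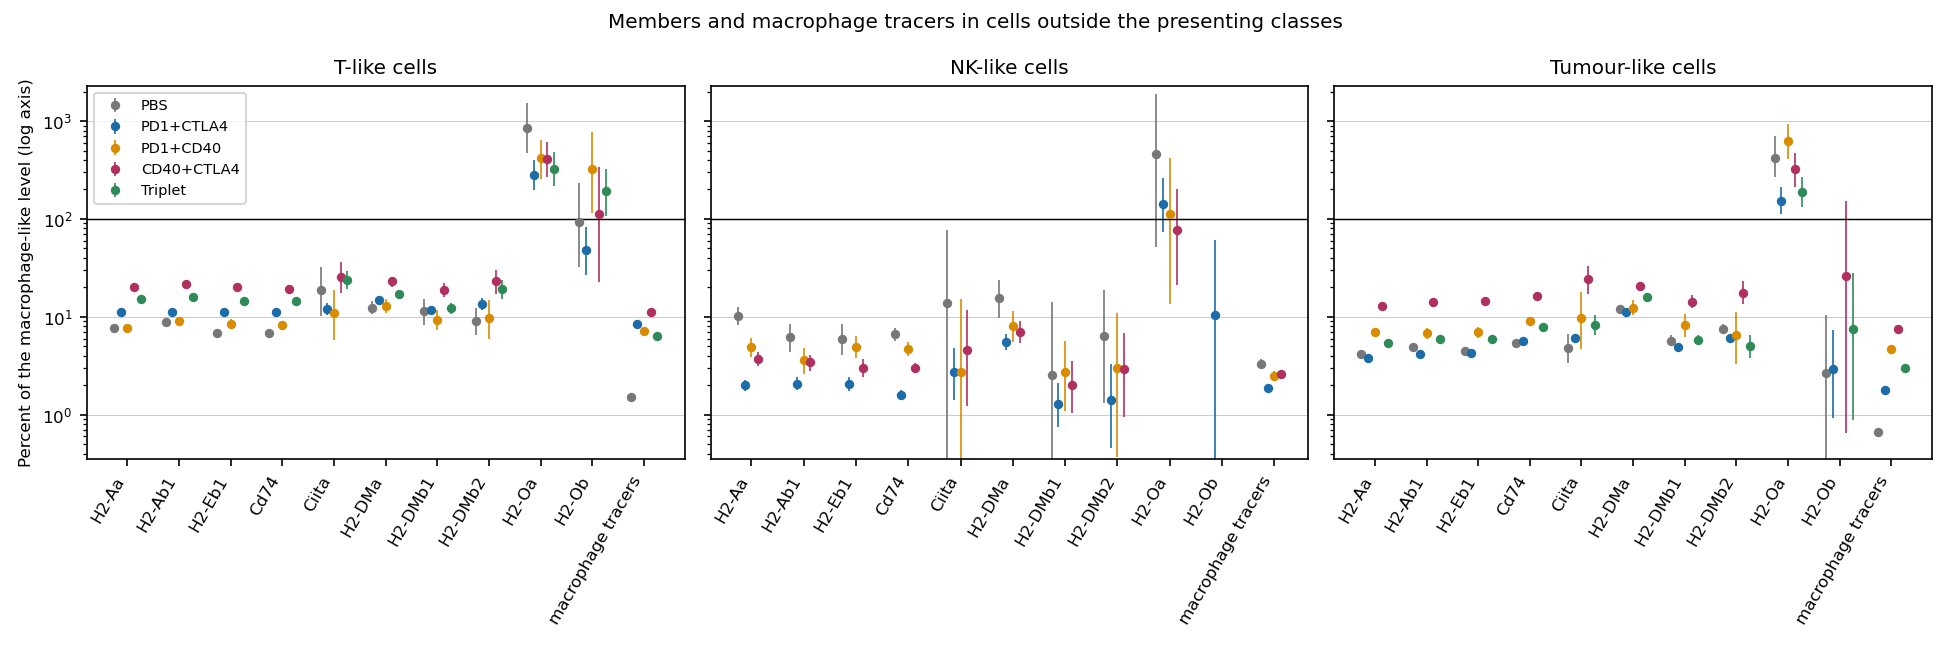
Members and macrophage tracers in T-like, natural killer-like and tumour-like cells, as a percentage of the macrophage-like level of the same library (vertical log axis). The line marks 100%, and bars are exact 95% intervals of the ratio. H2-Oa alone lies above 100% in each library in both T-like and tumour-like cells, at 2.80-fold to 8.41-fold in T-like cells. In natural killer-like cells H2-Oa ran from 3.09 to 9.41 CPM, which overlaps its macrophage-like range of 2.04 to 4.3.

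Over the 30 profiles of a class in a library with at least 50 cells, the summed members were followed most closely by Cd74 (Pearson r = 0.997), H2-Aa (0.996), H2-Eb1 (0.993), H2-Ab1 (0.989) and H2-DMb2 (0.965), which are part of the sum. H2-DMa (0.929), Ciita (0.910) and H2-DMb1 (0.851) came lower, and H2-Ob (0.600) and H2-Oa (0.389) ranked 484 and 1012 among 6945 genes. Among the nearest non-members were Prkcd (0.95), a protein kinase C, Spi1 (0.947), the myeloid and B-cell factor PU.1, Csf2ra (0.944), a receptor chain for GM-CSF, and Ctsh (0.938), a lysosomal protease. The profiles share libraries and depth, and these values are descriptions across cell classes.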

How the data were processed

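The deposited counts are whole UMI counts per gene and barcode, per the file headers from Cell Ranger 4 (PBS) and 7.1.0 (treated libraries); the submitters' processing notes name mm9, and the files carry no coordinates. Barcodes under 500 UMIs or 300 genes, or over 10% mitochondrial UMIs, were left out. Counts were normalized, and the 2000 most variable genes, without the members and pathway genes, gave 30 components, a graph of 15 neighbours and Leiden clusters at resolution 1 (Python 3.11.15, Scanpy 1.11.5, leidenalg 0.10.2, igraph 0.11.9). Clusters were named from marker lists; the naming thresholds were set after the data were seen. The members, lists and tests were chosen with earlier results of these data known. No doublet caller was run; clusters that mixed lineages stayed unnamed, and an alternative left out barcodes with a second lineage. Pairs of libraries shared 0 to 69 cell barcodes. Classes under 50 cells in a library were not used. UMIs were summed per class and library; levels carry exact Poisson, ratios exact conditional and shares Clopper-Pearson 95% intervals (SciPy 1.17.1). Since each group is 1 library, no count model was fitted; edgeR 4.0.16 gave TMM factors for 1 alternative. Counts were simulated for Triplet against PD1+CTLA4 (13229 genes, 200 changed 3-fold). The 2-fold call found all of the 82 changed genes of at least 20 CPM, 62.5% of all changed genes, and no unchanged gene. The simulated counts came from 1 shared profile with counting error alone. They cannot show how often differences between mice, libraries or cluster mixes pass 2-fold. All members were named; of the pathway list, up to 4 genes with the largest called change per comparison; and the 5 non-members with the highest correlation to the summed members; some genes this rule picks are not reported here. Other settings tried were the cell filters, cluster resolution, gating on markers, thinning, equal cell numbers, pseudocount, UMI minimum, fold threshold and subtraction of free RNA.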

Additional observations from a re-analysis of the deposited data

Results flagged for a closer look

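Ciita moved in opposite directions in 2 classes under the same exchange of anti-PD-1 for anti-CD40. In CD40+CTLA4 against PD1+CTLA4 its log2 change was 1.24 in mature dendritic-like cells (73.3 against 28.3 CPM) and -1.43 in macrophage-like cells (68.2 against 193). Each class has 1 library per group, so the difference between the classes was not tested.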

How the results depend on the processing

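No paired analysis was possible because each group is 1 library. The count of members called in macrophage-like cells in Triplet against PD1+CTLA4, 1 (Ciita), was 0 with cells gated on markers, with cells thinned to 1000 UMIs, at a 3-fold threshold, over all mononuclear phagocytes and with the same mix of clusters (the last 2 chosen after seeing the data), 4 without barcodes of a second lineage (H2-Aa, H2-Eb1, Cd74 and Ciita) and 7 at 1.5-fold. The counts for the other 2 pairs, set against PD1+CTLA4, 1 each, were 2 with a pseudocount of 1, 3 at 1.5-fold and 0 at 3-fold. Triplet against the 2 pairs with anti-CD40 gave 0 under every setting run. Of the 10 members, 8 were lower in T-like than in B-like, pooled dendritic-like and macrophage-like cells. This became 7 after subtraction of free RNA, with tumour-like cells as the source where a library listed no empty barcodes. The members stood above the tracers, relative to macrophage-like cells, in 5 libraries in T-like and in tumour-like cells; for tumour-like cells this became 3 with gating and 2 without a second lineage, in each case all libraries that kept 50 such cells; the second of these filters removes tracer UMIs and so does not test this order. Set against empty barcodes (10 to 100 or 1 to 50 UMIs) or, without them, tumour-like cells, T-like cells held more than the scaled source in 3 of 5 libraries, in Triplet by 23.0 of 1990.1 CPM with overlapping ratios, and tumour-like cells, in the 2 libraries with empty barcodes, in 2. Where tumour-like cells were the source, the outcome follows from their own members per tracer and decides nothing about T-like cells. The number of members below 0 in Triplet against CD40+CTLA4, 8 of 10, was 3 over all mononuclear phagocytes and 6 with gating. With cells thinned to 500 UMIs, cells without a member UMI made up 22.4%, 13.8%, 14.9%, 15.5% and 15.8% of macrophage-like cells (PBS, PD1+CTLA4, PD1+CD40, CD40+CTLA4, Triplet), and 2.01%, 5.80%, 6.69%, 4.46% and 0.792% of dendritic-like cells against 0.671%, 1.52%, 3.26%, 2.46% and 0% at 1000; fewer UMIs per cell raise this share by construction. The causes of the other changes were not tested. Depth limits H2-Oa and H2-Ob most.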

Other observations

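Clusters that stayed unnamed held class II as well. In PBS, a cluster led by Cxcl2 and Areg (1179 cells) held 49206 CPM of the 10 members, above the dendritic-like level of that library (45322), and it was nearly absent from the treated libraries. A cluster led by Mmp9, Acp5 and Ctsk, genes known from osteoclasts, held 3130.3 in PD1+CD40, 3126 in CD40+CTLA4 and 2118 in Triplet, below every named macrophage-like cluster with at least 50 cells in those libraries. In PD1+CD40 its value lay within the counting interval of the macrophage-like cluster led by Plac8 (3203, 3023 to 3391). A cluster of neutrophil genes such as S100a9 and S100a8 held 4622 in PBS and 10981 to 13168 in the treated libraries, at medians of 977 to 1408 UMIs per cell. A cluster led by collagen genes held 3021 in PBS, 8323 in PD1+CTLA4, 7316 in PD1+CD40 and 6318 in CD40+CTLA4, also at few UMIs per cell. Relative to class II chains, tumour-like cells held more Cd74 than macrophage-like cells: 138, 113, 105, 98 and 107 UMIs per 100 of H2-Aa, H2-Ab1 and H2-Eb1, against 116, 80.2, 80.3, 82.3 and 78.1.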
